A study of Mus musculus with 2 samples.

Results

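The genes described here are 7 genes of the interleukin-1 (IL-1) family, chosen by name: the cytokines Il33, Il1a, Il1b and Il18, the antagonist Il1rn, and the receptors Il1r1 and Il1r2. All 7 were listed in both libraries, among 31054 features in the normal and 32285 in the wounded library. Cells came from the anorectal junction, where the gland epithelium of the rectum meets the stratified epithelium of the anal canal across a transition zone. Both libraries were made from C57/BL6J mice carrying K17CreERT2, an inducible Cre under the promoter of keratin 17, and the R26RGFP reporter, and all mice had been given tamoxifen. The labels give no age, and the study used both sexes. It gives an age range in months for its wounded mice and a range in weeks for its mice in general. Whether the mice of both libraries were of the same age is not stated. At least 5 mice were pooled per sample, so each condition is 1 library. The cells were sorted with a strategy based on Epcam that excluded cells with CD45, CD11b, CD31 or PDGFRa. The normal library had no wound, and the wounded library was taken 1 week after an EDTA wound. By the study's methods, this wound used hot EDTA and then an electric brush to remove crypts of the rectum near the transition zone. Wounding was done under isoflurane anesthesia, and the mice were given METACAM before it. By the study's account the wounded library was also taken longer after tamoxifen than the normal one. Effects of these differences cannot be told apart from that of the wound.

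IL-1 family cytokines signal through paired receptors that share MyD88 and the NF-kB pathway. IL-33 and IL-1α are kept in the cells of barrier epithelia and act as alarmins when these cells are damaged, IL-1β is made mainly by myeloid cells, and IL-18 is kept as a precursor in gut epithelium and cut by caspase-1. The antagonist IL-1Ra (Il1rn) and the decoy receptor IL-1R2 (Il1r2) both restrain IL-1, and IL-1R1 is the receptor that signals for it.

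On the files' build (GRCm38), with positions taken here from GENCODE M21, Il33 (ENSMUSG00000024810) is at chr19:29925114-29960718 on the plus strand. Il1a (ENSMUSG00000027399, chr2:129299610-129309972) and Il1b (ENSMUSG00000027398, chr2:129364570-129371139) are neighbours on the minus strand of the same chromosome, where Il1rn (ENSMUSG00000026981, chr2:24336853-24351494, plus strand) also lies. Il18 (ENSMUSG00000039217) is at chr9:50554827-50581840, and the receptors Il1r2 (ENSMUSG00000026073, chr1:40074079-40125231) and Il1r1 (ENSMUSG00000026072, chr1:40225080-40317257) follow each other, all on the plus strand.

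The stretches of 250 bases before the transcription start are shown for Il33, on which most comparisons turn, and for Il1a, whose UMIs lay in a few wounded cells. They are RefSeq sequence (GRCm38.p6), 5′ to 3′ on the strand of the gene. Il33 has 2 annotated starts, and the 3′ tags counted here cannot tell them apart. Capitals mark the TATA box (TATAAA) and, in Il1a, the AP-1 motif (TGANTCA), both searched on both strands.
Il33, first start, chr19:29924863-29925112, plus strand: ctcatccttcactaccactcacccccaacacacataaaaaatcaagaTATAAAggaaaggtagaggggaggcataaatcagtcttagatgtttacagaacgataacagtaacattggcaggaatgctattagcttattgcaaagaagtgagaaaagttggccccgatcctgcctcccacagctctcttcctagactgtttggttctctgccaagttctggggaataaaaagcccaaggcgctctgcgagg
Il33, second start, chr19:29945540-29945789, plus strand: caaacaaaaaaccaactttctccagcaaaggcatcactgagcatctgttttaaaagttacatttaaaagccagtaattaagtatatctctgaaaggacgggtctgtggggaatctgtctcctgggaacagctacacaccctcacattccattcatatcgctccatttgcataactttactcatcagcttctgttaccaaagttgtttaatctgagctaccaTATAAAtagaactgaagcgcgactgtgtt
Il1a, chr2:129309973-129310222, minus strand: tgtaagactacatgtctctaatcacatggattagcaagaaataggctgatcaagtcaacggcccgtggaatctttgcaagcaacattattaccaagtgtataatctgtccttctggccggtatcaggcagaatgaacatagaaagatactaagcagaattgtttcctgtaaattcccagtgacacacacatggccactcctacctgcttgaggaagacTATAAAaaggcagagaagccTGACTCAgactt
The TATA box letters began 29 bases before the second start of Il33 and 32 bases before the start of Il1a, and 203 bases before the first start of Il33. The AP-1 letters began 12 bases before the start of Il1a and were in neither window of Il33. Of 32851 promoters of this length, 12.37% held the TATA box letters and 6.749% the AP-1 letters. Of the other members, the windows of Il1b and Il18 held the TATA box letters, the window of the first start of Il1rn held the AP-1 letters, and those of Il1r1 and Il1r2 held neither.

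Levels were read in the 939 normal and 4147 wounded cells that the authors deposited with a cell name, and in the 610 and 1078 cells that passed the study's filters but were left out of the deposited tables, from which the study had removed anal gland, hair follicle and fibroblast cells. A level is the sum of UMIs (counted RNA molecules) of a gene over the cells of a group scaled to a common total of UMIs (CPM). Ranges in brackets are exact 95% intervals and cover counting error only. Each condition has no replicate, so no p-value is given. Deposited cells had a median of 9724 UMIs in the normal and 10077 in the wounded library, with 4.77% and 8.50% mitochondrial UMIs. No cell barcode was shared between the cells of both libraries.

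The deposited names were Anal Canal (432 cells), Basal (257), Suprabasal (187) and Rectum (63) in the normal library, and Basal (573), Suprabasal (1032), Regeneration (991), Wound_Stress (838), Hybrid (316) and Rectum (397) in the wounded library. The names were made by clustering these same cells, so differences between names are descriptions. The study described wounded clusters of stratified cells by wound and regeneration genes and gave Il33 as its example. The names Regeneration and Wound_Stress may thus rest partly on Il33, and its level in them gives no independent support to these names. The summed level of 9 rectum genes was 10581 and 9499 CPM in the Rectum cells and at most 1355 CPM, in Hybrid, elsewhere. The wounded cells named Basal did not match the normal ones: 6 suprabasal layer genes (Krt1, Krt10, Krt13, Krt4, Sbsn, Krtdap) summed to 10019 CPM in them against 377 CPM in normal Basal and 10155 CPM in normal Anal Canal. Over 12472 genes their profile correlated with normal Anal Canal at r = 0.946 and with normal Basal at r = 0.879. Comparisons of wounded with normal Basal are therefore given beside comparisons with normal Anal Canal.

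Il33, the nuclear alarmin, was highest among the deposited names in the wounded Wound_Stress cells, at 154 CPM (145 to 163, 1148 UMIs), and in the Regeneration cells, at 134 CPM (128 to 140, 1742 UMIs). The other wounded names held 20.9 CPM in Hybrid (14.2 to 29.7), 16.1 in Rectum (12.4 to 20.4), 10.1 in Suprabasal (8.36 to 12.1) and 6.45 in Basal (4.54 to 8.89). The normal names held 15.5 CPM in Basal (11.2 to 20.99, 42 UMIs), 8.45 in Anal Canal (5.95 to 11.6, 37 UMIs) and 5.68 in Rectum (1.55 to 14.5, 4 UMIs), and no UMI was counted in the 187 Suprabasal cells, where the interval ends at 1.62 CPM. Both stood far above every other name, and their order depended on the scaling: the log2 ratio of Wound_Stress to Regeneration was 0.20, 0.07 with TMM scaling (edgeR) and -0.02 with names from new clusters. Hybrid, wounded Rectum and normal Basal did not differ beyond counting error, and neither did wounded Suprabasal, normal Anal Canal, wounded Basal and normal Rectum as neighbours in that order. Barcodes that failed the filters held 5.78 CPM of Il33 (2.64 to 11.0, 9 UMIs) in the normal library. In the wounded library they held 10.8 CPM (9.66 to 11.9, 355 UMIs).

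Il33 was spread over many cells of the high groups. In Regeneration, 534 cells (53.9%) had at least 1 UMI, 125 had 5 or more and the highest had 21. In Wound_Stress, 439 cells (52.4%) had at least 1 UMI, 66 had 5 or more and the highest had 16. The tenth of cells with most Il33 held 46.0% and 43.2% of the UMIs of these names. When each cell was thinned to 2000 UMIs, 20.3% of Regeneration cells (17.8 to 22.9) and 22.9% of Wound_Stress cells (20.02 to 25.9) kept a UMI, against 2.94% in wounded Suprabasal and 0.709% in wounded Basal. No UMI was kept in 183 thinned cells of normal Suprabasal, whose median depth was 11543 UMIs beside 12616 in Regeneration and 8532 in Wound_Stress. Before thinning, 78 wounded Suprabasal cells (7.56%) and 26 wounded Basal cells (4.54%) had a UMI.

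**Figure D1:**
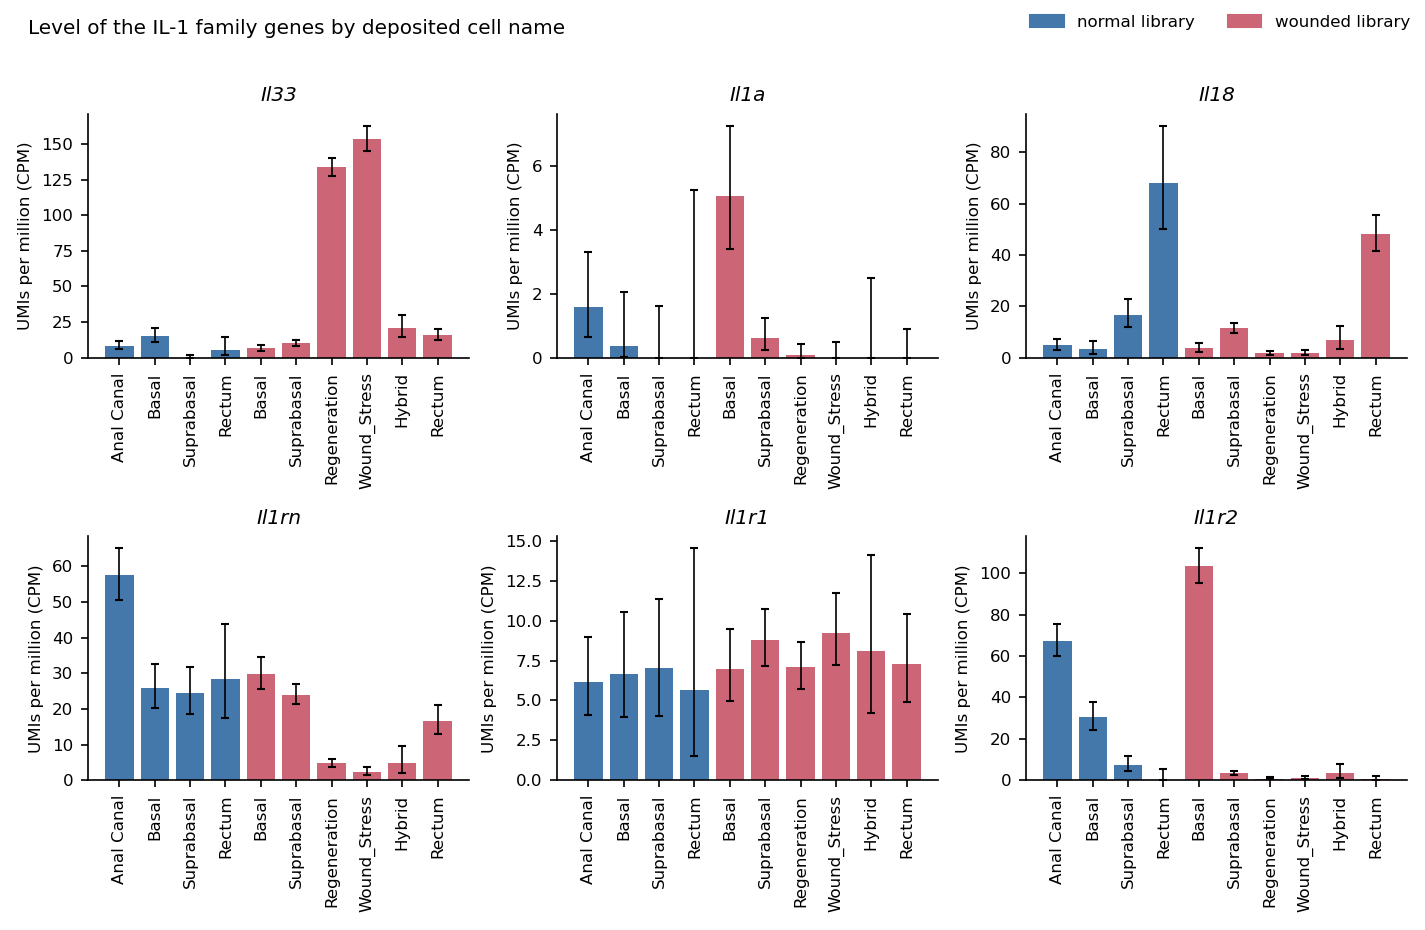
Level of 6 genes (y axis, CPM, each panel with its own scale) in the 4 normal and 6 wounded deposited names (x axis). Bars are sums over the cells of a name in 1 library and lines are exact 95% intervals of counting. Il33 reaches 154 CPM in Wound_Stress, Il1r2 103 CPM in wounded Basal and Il18 68.2 CPM in normal Rectum, while the intervals of Il1r1 overlap throughout. Il1b, with no UMI in any name, is not drawn.

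Among the cells left out of the normal table, 2 clusters held more Il33 than any deposited name. The left-out cells were clustered with the 7 genes and the pathway genes kept out of the variable features. Normal left-out cluster 1 (138 cells, led by Pdk4, Cyr61, Egr4 and Saa3) held 181 CPM (163 to 201, 362 UMIs), with a UMI in 63.0% of its cells. Normal left-out cluster 4 (93 cells, led by Il33, Cck, Akr1c18 and Gjb6) held 199 CPM (170 to 232, 161 UMIs), with a UMI in 46.2% of its cells. After thinning, 22.5% and 19.1% of their cells kept a UMI, close to the shares in Regeneration and Wound_Stress. Neither cluster met the marker rule for a name. The anal gland list scored best in both, with a mean log2 ratio of 0.918 in cluster 1 and 0.276 in cluster 4, under the limit of 1.

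In the other normal left-out clusters Il33 was lower. The anal gland-like cluster 3 held 17.3 CPM (10.5 to 26.7), cluster 5, led by haemoglobin, immunoglobulin and muscle genes, held 28.2 CPM (16.7 to 44.6), and the hair follicle-like cluster 6 held no UMI in 71 cells. In the wounded library, the anal gland-like left-out cluster 2 held 56.8 CPM (48.5 to 66.0) and the anal gland-like cluster 1 held 12.3 CPM (8.97 to 16.4). All left-out cells together held 94.5 CPM (86.9 to 103) in the normal and 21.5 CPM in the wounded library, against 8.24 and 72.4 CPM in the deposited cells. The left-out cells were thus above the deposited cells in the normal library, by 3.52 on the log2 scale (3.19 to 3.87), and below them in the wounded library, with a log2 ratio of -1.75 (-1.94 to -1.57).

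The groups rich in Il33 also held anal gland genes. A list of 8 such genes (Scd1, Plin2, Mgst1, Fasn, Pparg, Awat2, Far2, Acsbg1) summed to 2954 CPM in Regeneration, 1899 in Wound_Stress, 3308 in normal left-out cluster 1 and 2040 in normal left-out cluster 4, each with all 8 genes detected. In the other deposited names the sum was between 278 and 717 CPM, also with all 8 genes detected except in normal Rectum (6). In the anal gland-like clusters it was higher, 8837 CPM in the normal and 10746 and 5090 CPM in the wounded library, and Il33 was lower there. What part gland cells have in the levels of Il33 was not tested.

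**Figure D2:**
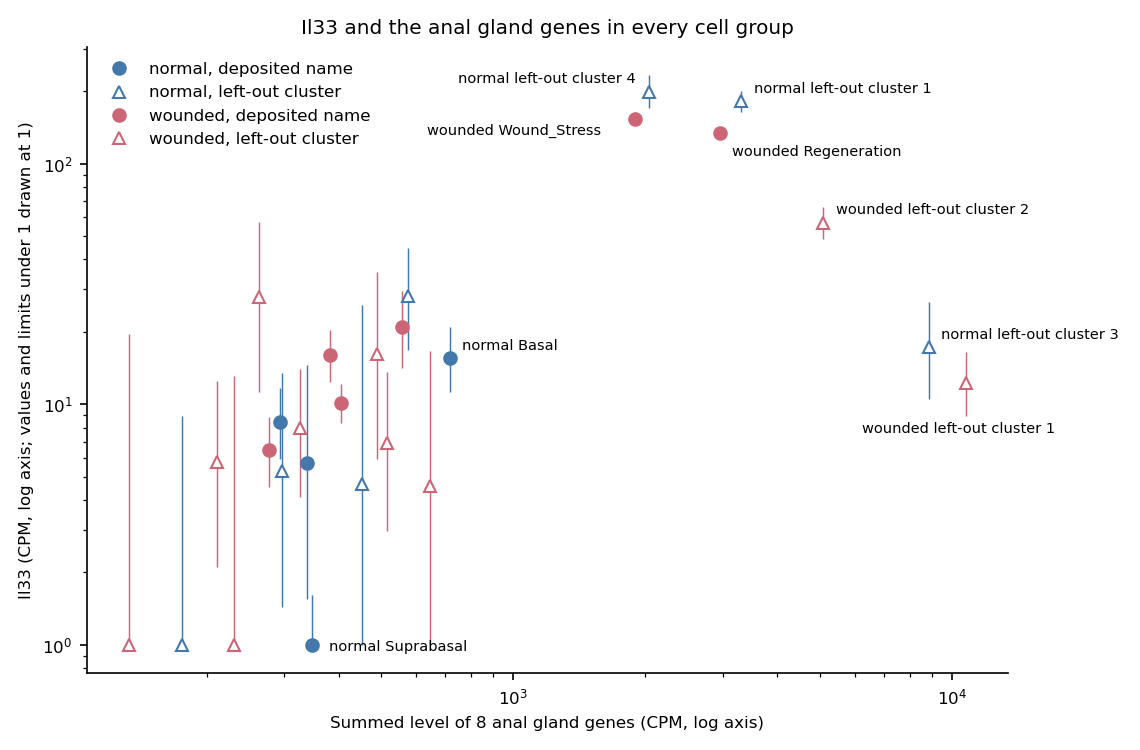
Level of Il33 (y axis, CPM, log axis) against the summed level of 8 anal gland genes (x axis, CPM, log axis) in every deposited name (circles) and left-out cluster (triangles) of both libraries, with exact 95% intervals of counting for Il33. Regeneration, Wound_Stress and normal left-out clusters 1 and 4 sit together between 134 and 199 CPM of Il33 and between 1899 and 3308 CPM of gland genes. Values and limits under 1 are drawn at 1.

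Within deposited names Il33 was uneven. The deposited cells were clustered again without the 7 genes and the pathway genes, and 97.7% of normal and 86.6% of wounded cells kept the name that most cells of their new cluster carried. Regeneration cells of new cluster 3 (691 cells) held 154 CPM (146 to 162) with 3689 CPM of gland genes, and those of new cluster 2 (270 cells) held 68.2 CPM (59.0 to 78.5) with 678 CPM of gland genes. Wounded Suprabasal cells held 89.6 CPM (55.4 to 137) in the 62 cells of new cluster 1, 18.0 CPM (14.2 to 22.5) in the 500 cells of cluster 2 and 2.82 CPM (1.72 to 4.36) in the 466 cells of cluster 5. Gland genes summed to 759, 368 and 416 CPM in these cells, in the same order. The 62 cells shared their cluster with 823 Wound_Stress cells at 156 CPM, so the cells named Suprabasal were not of 1 kind in this gene. The 62 cells were also shallower than the 500 or the 466. In them 21 UMIs of Il33 made 89.6 CPM, while 76 UMIs made 18.0 CPM in the 500. What part depth has in their name or level was not tested.

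In the normal Anal Canal, Il33 was at 11.5 CPM (8.07 to 16.0) in the 314 cells of a new cluster led by Krt13 and at 0.803 CPM (1 UMI) in the 113 cells of a new cluster that held Krt10 and Krt1 among its leading genes. In the wounded Rectum it was at 22.4 CPM (16.9 to 29.0) in 285 cells and at 3.45 CPM (1.12 to 8.05) in 107 cells of another new cluster. Hybrid was mixed too. Its 50 cells in new cluster 1, that of most Wound_Stress cells, held 96.4 CPM of Il33 (44.1 to 183, 9 UMIs). Its 159 cells in new cluster 7 held 11.5 CPM (5.73 to 20.5). Cluster 7 had Pyy, Insl5, Krt25 and Krt71 among its leading genes.

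Il1a, the other epithelial alarmin, was rare: 37 UMIs in all wounded and 8 in all normal deposited cells. Wounded Basal held 29 of them (5.05 CPM, 3.38 to 7.25), normal Anal Canal 7 (1.60 CPM), wounded Suprabasal 7 (0.605 CPM), and normal Basal and Regeneration 1 each. The 29 UMIs of wounded Basal were in 9 cells, all in a new cluster with 19 Basal cells, where the level was 212 CPM (142 to 304). The 540 Basal cells of new cluster 4 held none, which allows at most 0.686 CPM. Il1a in wounded Basal is thus a value of 19 cells, in a cluster led by Sprr2d, Psca, Ltf, Cxcl5 and Arg1, and the same cells held 102 CPM of Il1rn.

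Il1b, the myeloid cytokine, had no UMI in any of the 10 names. The upper ends of the intervals were 0.366 CPM for all normal and 0.0851 CPM for all wounded deposited cells. The wounded left-out cells held 2 UMIs. Genes of myeloid cells (Ptprc, Tyrobp, Fcer1g, Csf1r, Cd68, Csf3r) summed to at most 10.1 CPM in any deposited name. The sort was for epithelium and excluded cells with CD45 (the product of Ptprc) or CD11b, so these counts do not describe myeloid cells of the tissue. Barcodes of the wounded library that failed the filters held 35 UMIs of Il1b, 30 of them in 1 of 6 barcodes.

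Il18, the precursor of gut epithelium, was highest in the Rectum cells of both libraries. Normal Rectum held 68.2 CPM (50.3 to 90.4, 48 UMIs) and wounded Rectum 48.2 CPM (41.7 to 55.4, 198 UMIs). Normal and wounded Suprabasal followed with 16.6 CPM (11.8 to 22.9) and 11.4 CPM (9.54 to 13.5), and the other names held 6.74 CPM (Hybrid) down to 1.74 CPM (Wound_Stress), with no neighbours differing beyond counting error from normal Suprabasal downwards. After thinning, 10.0% of normal and 7.06% of wounded Rectum cells kept a UMI, against 0.122% in Wound_Stress. Rectum was above the other names by 3.23 on the log2 scale (2.67 to 3.79) in the normal and by 3.24 (2.95 to 3.53) in the wounded library. In barcodes that failed the filters Il18 was at 28.9 CPM in both libraries.

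**Figure D3:**
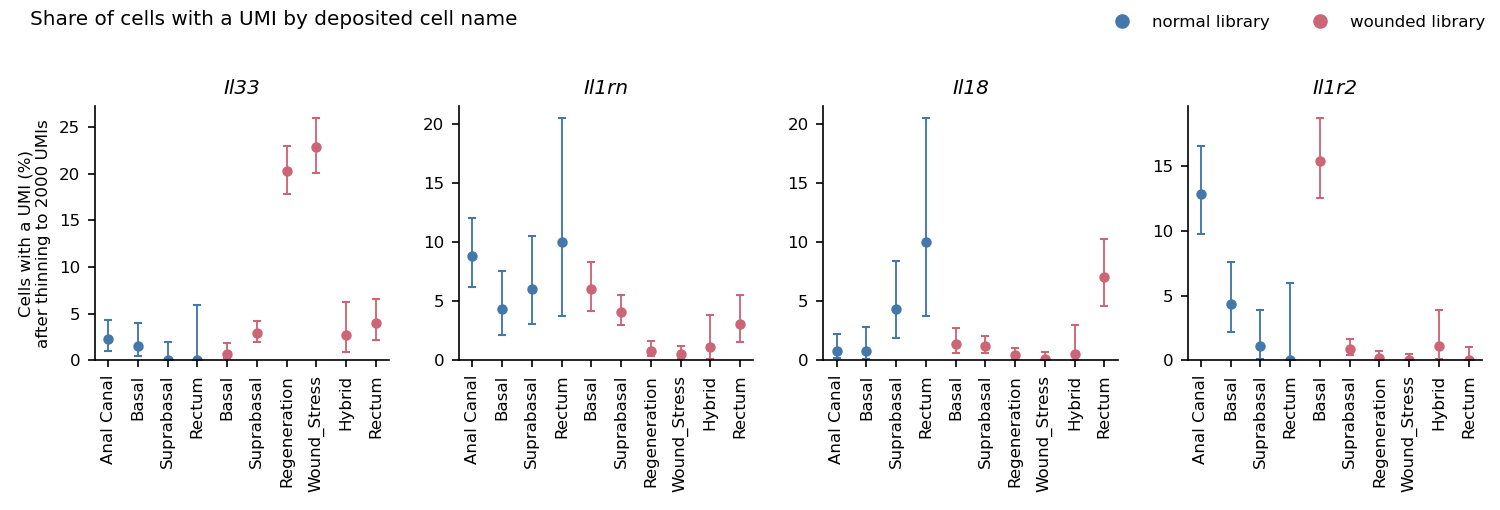
Share of cells with at least 1 UMI (y axis, %) after each cell was thinned to 2000 UMIs, for 4 genes in the deposited names (x axis) of the normal and wounded libraries, with exact 95% intervals. The share of Il33 is 20.3% in Regeneration and 22.9% in Wound_Stress, that of Il1r2 15.4% in wounded Basal and 12.8% in normal Anal Canal, and that of Il18 10.0% and 7.06% in the Rectum cells.

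Il1rn, which encodes the receptor antagonist, was highest in normal Anal Canal, at 57.5 CPM (50.6 to 65.1, 252 UMIs), with a UMI in 35.4% of cells and in 8.82% after thinning. It was at 29.8 CPM in wounded Basal, 28.4 in normal Rectum, 25.9 in normal Basal, 24.5 in normal Suprabasal and 24.0 in wounded Suprabasal, 5 names that did not differ from their neighbours beyond counting error. Wounded Rectum held 16.5 CPM (12.8 to 20.97). The lowest levels were in Hybrid at 4.72 CPM, Regeneration at 4.69 (3.59 to 6.03) and Wound_Stress at 2.28 (1.33 to 3.65), the last of these being the name with most Il33. The left-out cells held 1.503 CPM in the normal and 1.43 CPM in the wounded library, and no left-out cluster held more than 6.88 CPM (3 UMIs). Barcodes that failed the filters held 25.7 and 27.5 CPM of Il1rn.

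Il1r1, the signalling receptor, was low and even: 5.68 CPM (normal Rectum) to 9.25 CPM (Wound_Stress), and no name differed from its neighbour beyond counting error. Its higher levels were outside the deposited names. The wounded fibroblast-like left-out clusters 5 and 7 held 45.8 CPM (34.3 to 59.9) and 59.4 CPM (37.2 to 89.97). The normal fibroblast-like cluster held 23.3 CPM (7.55 to 54.3, 5 UMIs), and 1 muscle or pericyte-like cluster 35.8 CPM (16.4 to 68.0). Wounded cluster 6, led by endothelial and MHC class II genes, held 28.0 CPM (14.5 to 48.9, 12 UMIs) without its highest cell. The sort excluded cells with PDGFRa or CD31, so these counts do not describe all such cells of the tissue. The wounded anal gland-like clusters held 0.546 and 1.34 CPM.

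Il1r2, the decoy receptor, was highest in wounded Basal, at 103 CPM (95.3 to 112, 594 UMIs), with a UMI in 36.3% of cells and in 15.4% after thinning (12.5 to 18.7). Normal Anal Canal followed with 67.3 CPM (59.9 to 75.5, 295 UMIs; 12.8% after thinning) and normal Basal with 30.3 CPM (24.1 to 37.6, 82 UMIs; 4.31%). Each of these 3 levels differed from the next beyond counting error. Normal Suprabasal held 7.45 CPM, of which 11 of 17 UMIs were in 1 cell (2.65 CPM without it), and wounded Suprabasal and Hybrid both held 3.37 CPM. Wound_Stress, Regeneration and wounded Rectum held between 0.730 and 1.07 CPM, and normal Rectum had no UMI, with an interval that ends at 5.24 CPM. The wounded anal gland-like clusters, where no UMI was found in 217 and 209 cells of median depth 17263 and 13868 UMIs, had deeper cells than wounded Basal (9075 UMIs).

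Within the normal Anal Canal, Il1r2 was at 99.6 CPM (82.9 to 119) in the 113 cells of the new cluster with Krt10 and Krt1, and at 53.1 CPM (45.4 to 61.9) in the 314 cells of the Krt13-led one, the opposite order to Il33. A high level in a wounded fibroblast-like cluster (159 CPM, cluster 7) came from 1 cell with 54 UMIs, and was 13.9 CPM without it.

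The receptor of IL-33, Il1rl1 (ST2), had no UMI in any of the 10 names. Its few UMIs were in left-out cells: 13 in the wounded fibroblast-like cluster 5 (11.2 CPM), 5 in wounded cluster 6 (11.5 CPM), a cluster led by endothelial and MHC class II genes, and 1 in the normal fibroblast-like cluster. The accessory chain Il1rap, shared by the receptors of IL-1 and IL-33, was at 15.8 CPM in normal Suprabasal (36 UMIs), 8.87 in normal Basal, 8.47 in wounded Suprabasal and between 2.19 and 5.40 in the other names. The IL-18 receptor Il18r1 had 14 UMIs in wounded Basal (2.44 CPM), 4 in normal Anal Canal and 4 in the rest of the deposited cells.

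The comparisons below give a log2 ratio of the levels of 2 groups for genes with at least 20 UMIs in both together, and a gene is counted as past the line where the ratio exceeds 2-fold. Beside each count stands the share of all genes tested that were past 2-fold in either direction. A list of other genes of the pathway (IL-36 cytokines, receptors, inflammasome, NF-kB signalling and other alarmins; 59 genes listed in both libraries) is given by its counts.

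Between the Regeneration and Wound_Stress cells together and the wounded Basal and Suprabasal cells together, 5 of 6 members tested were past 2-fold, against 21.3% of all genes. Il33 was higher (141 against 8.89 CPM, log2 ratio 3.99, 3.75 to 4.23). The other 4 were lower: Il1a (log2 ratio -5.41, 1 against 36 UMIs), Il1r2 (-5.38, -6.14 to -4.71), Il1rn (-2.77, -3.13 to -2.42) and Il18 (-2.34, -2.90 to -1.81). Il1r1 was at -0.06 (-0.39 to 0.28). Il33 was thus opposite in direction to the 4 other members past the line. Since the study used Il33 to describe such wounded clusters, its place in this count is a description.

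Of the pathway list, 4 of 48 genes tested were higher and 9 lower in that comparison. The higher ones included Tnfaip3 (log2 ratio 2.08), Nfkbia (1.88) and Nfkbiz (1.53), which encode feedback regulators of NF-kB. Their higher level was that of Regeneration: Nfkbia was at 598 CPM there and 65.4 in Wound_Stress, against 82.1 in wounded Basal and 124 in wounded Suprabasal. Nfkbiz was at 119.96 CPM in Regeneration and 36.1 in Wound_Stress, against 34.5 and 29.1. Tnfaip3 was at 26.1 CPM in Regeneration and 2.68 in Wound_Stress, against 4.16 in Basal and Suprabasal together. A high level was not particular to wounded cells. Normal left-out cluster 1, the closest normal profile to Regeneration, held 873 CPM of Nfkbia and 36.6 CPM of Tnfaip3. The log2 ratios of Regeneration to it were -0.54 (-0.62 to -0.47) and -0.48 (-0.85 to -0.10). The lower ones included the IL-36 cytokines Il1f9 (-6.62, 2 against 166 UMIs) and Il1f8 (-3.94) and the IL-36 antagonist Il1f5 (-4.76). Il1f9 (IL-36γ) was at 34.2 CPM in normal Anal Canal and 26.3 CPM in wounded Basal, the names with most Il1r2, and at most 6.07 CPM elsewhere.

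Wound_Stress and Regeneration were close in the members. Il33 differed by a log2 ratio of 0.20 (0.09 to 0.31) and 1 of 4 members tested was past 2-fold, Il1rn at -1.04 (-1.91 to -0.25), against 10.7% of all genes. No member was past 2-fold when mitochondrial UMIs were left out of the totals. In the pathway list none of 42 genes was higher in Wound_Stress and 8 were lower, led by the NOD-like receptor Nlrp10 (-4.08), Tnfaip3 (-3.29) and Nfkbia (-3.19, 65.4 against 598 CPM). Both names were thus close in Il33 and far apart in these feedback genes.

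Normal Suprabasal against normal Basal had 3 of 5 members past 2-fold, against 23.7% of all genes. Il33 was lower, with a log2 ratio of -3.56 computed with 3 UMIs in place of the 0 in Suprabasal and an exact upper limit of -3.20. Il1r2 was lower (-2.03, -2.87 to -1.26) and Il18 higher (2.32, 1.25 to 3.56). In the list, 2 of 32 genes were higher, Casp1 (1.29), which cuts IL-18, and its adaptor Pycard (1.05), and 7 were lower, led by Tnfaip3 (-2.81), Nfkbia (-2.48) and Nfkbiz (-2.46).

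Normal Anal Canal against normal Basal and Suprabasal together had 2 of 5 members past 2-fold, against 18.8% of all genes. Both inhibitors of IL-1 were higher, Il1r2 by 1.76 on the log2 scale (1.43 to 2.11) and Il1rn by 1.19 (0.87 to 1.51), while Il33 was at 0.00 (-0.67 to 0.68). In the list 3 of 38 genes were higher, Il1f9 (4.42), Il1f8 (2.58) and the calpain Capn2 (1.23), and 3 were lower, Tnfaip3 (-2.04), Il1rap (-1.72) and Irak3 (-1.23).

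Rectum against the other names had 2 of 5 members past 2-fold in the normal library, against 32.4% of all genes, and 3 of 6 in the wounded library, against 33.9%. Il18 is given above. Il1r2 was lower in both, with a log2 ratio of -3.30 in the normal library (3 UMIs in place of 0, exact upper limit -2.998) and of -4.52 (-6.80 to -2.96) in the wounded library. Il33 was at -0.57 (-2.48 to 0.84) in the normal and -2.29 (-2.66 to -1.93) in the wounded library, where the other names include Regeneration and Wound_Stress. Of the list, 7 of 41 genes were higher and 6 lower in the normal library, and 13 of 48 were higher and 9 lower in the wounded library. The higher ones included the inflammasome gene Nlrp6 at 8.06 and 4.36, Naip1 at 8.32 and 3.36 and the pore-forming Gsdmd at 5.25 and 3.28. Naip1, Naip2, Naip5 and Naip6 are near-identical copies, which makes their separate counts uncertain. Among the lower ones were Il1rap (-1.51 and -1.24) and the IL-36 receptor Il1rl2, at -1.49 in the normal library, with 3 UMIs in place of 0, and at -2.59 in the wounded library.

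Wounded against normal cells were compared name by name, with 1 library on each side. Between the cells named Basal, 3 of 6 members were past 2-fold, against 29.2% of all genes. Il33 was lower (6.45 against 15.5 CPM, log2 ratio -1.27, -1.95 to -0.60), and Il1r2 (103 against 30.3 CPM, 1.77, 1.44 to 2.12) and Il1a (29 against 1 UMI, 3.77) were higher. Set against normal Anal Canal, the closest normal profile, wounded Basal had 1 of 6 past, Il1a at 1.66 (0.44 to 3.096), against 17.2% of all genes. Il33 was then at -0.39 (-1.09 to 0.31), Il1r2 at 0.62 (0.42 to 0.83) and Il1rn at -0.95 (-1.24 to -0.66). Both ratios of Il1a rest on 9 of 19 wounded Basal cells in new cluster 9. The 540 Basal cells of new cluster 4 held no Il1a, at most 0.686 CPM, against 1.60 CPM in normal Anal Canal. Cluster 9 shared leading genes such as Psca, Ltf and Cnfn with the normal Anal Canal cluster that held all 7 UMIs of Il1a in that name. In the list, 5 of 38 genes were higher and 10 lower between the cells named Basal, led by Il1f9 (5.15), Il1f8 (3.87) and Gsdmd (1.91) and by the alarmin Tslp (-3.09), Nlrp10 (-2.49) and Casp4 (-2.13). Il1f9 was at -0.38 against normal Anal Canal.

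Between the cells named Suprabasal, 2 of 5 members were past 2-fold, against 21.8% of all genes. Il33 had 117 UMIs in the wounded and 0 in the normal cells, a log2 ratio of 2.94 with 3 UMIs in place of 0 and an exact lower limit of 2.62. The wounded cells under this name were mixed: 76 UMIs were in 500 cells of new cluster 2 and 21 in 62 cells of new cluster 1. The 466 cells of new cluster 5 held 20 (2.82 CPM, 1.72 to 4.36). Cluster 5 shared leading genes such as Cst6, Krt79 and Defb6 with the new cluster of normal Suprabasal, where the interval ends at 1.63 CPM. The wounded level over all cells of the name, 10.1 CPM, was near that of wounded barcodes that failed the filters, 10.8 CPM (9.66 to 11.9). The level in new cluster 5 was below it and those in new clusters 1 (89.6 CPM) and 2 (18.0 CPM) were above it. The failing barcodes with a UMI of Il33 had a median of 37.7% mitochondrial UMIs and of 3925 UMIs, so they are not a measure of RNA outside cells alone. What part RNA from outside these cells has in it was not tested. Il1r2 was at -1.14 (-2.0 to -0.23), a value that rests on 11 UMIs of 1 normal cell and turns to 0.55 once the cells with the highest doublet scores are left out. In the list 8 of 43 genes were higher, led by Gsdmd (3.75, 68 against 1 UMI), Nlrp6 (2.52) and Irak3 (1.93), and 4 lower, led by Hmgb1 (-1.49), Nfkbie (-1.12) and Casp1 (-1.05).

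Between the cells named Rectum, 1 of 4 members was past 2-fold, against 18.0% of all genes. This was Il33, at 1.499 (0.07 to 3.42) from 66 against 4 UMIs. Of these, 9 of the 66 and 2 of the 4 were in 1 cell each. Wounded Rectum held 16.1 CPM and normal Rectum 5.68 CPM. Barcodes that failed the filters held 10.8 CPM in the wounded and 5.78 CPM in the normal library. What part RNA from outside the cells has in this ratio was not tested. Il18 was at -0.50 (-0.96 to -0.01) and Il1rn at -0.78 (-1.52 to 0.02). In the list 2 of 36 genes were higher, Naip6 and Naip5, and 4 lower, led by Hmgb1 (-1.79).

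Over all stratified names together, Rectum and Hybrid left out, 3 of 6 members were past 2-fold, against 23.6% of all genes. Il33 was higher in the wounded library (80.6 against 8.43 CPM, log2 ratio 3.26, 2.93 to 3.597), and Il1rn (-1.53, -1.73 to -1.34) and Il1r2 (-1.29, -1.47 to -1.10) were lower. The wounded side holds Regeneration and Wound_Stress, names that the normal table lacks. In the list 10 of 49 genes were higher and 5 lower, led by Naip1 (4.66), Nlrp6 (3.80) and Naip6 (3.53) and by Hmgb1 (-2.03), Il1f9 (-1.92) and Il1f5 (-1.82).

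These values depended on which normal cells were counted. The profile of Regeneration was closest to normal left-out cluster 1 (r = 0.944) and that of Wound_Stress to normal left-out cluster 4 (r = 0.936). The second match of Regeneration was close, normal Basal at r = 0.923, where Il33 was at 15.5 CPM. That of Wound_Stress was left-out cluster 1 at r = 0.921. Against the closest clusters, Il33 was slightly lower in the wounded cells: 134 against 181 CPM for Regeneration (log2 ratio -0.44, -0.60 to -0.27) and 154 against 199 CPM for Wound_Stress (-0.37, -0.61 to -0.12). In the first pair Il1rn (2.23, 0.31 to 5.304, 61 against 2 UMIs) and Il18 (1.82, -0.803 to 7.18, 23 against 1 UMI) were past 2-fold, though the interval of Il18 holds 0, against 21.8% of all genes, and in the second pair no member was, against 23.0%. With clusters 1 and 4 added to the normal stratified cells, the ratio of Il33 over these names was 0.70 (0.58 to 0.83) in place of 3.26. These clusters held the most Il33 of all normal groups, and no wounded left-out cells were added, so this ratio had to fall. Over all cells that passed the filters in both libraries the ratio of Il33 was 0.61 (0.48 to 0.73), from 61.5 against 40.4 CPM. Il33 was thus present at high level in cells of the unwounded library, in groups that the deposited normal table does not hold. The genes of the filter added for the normal sample, Lgr5, Lhx2 and Tbx1, each had UMIs in cluster 1 and no UMI in cluster 4. Which step of the study removed the cells of these clusters was not tested.

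**Figure D4:**
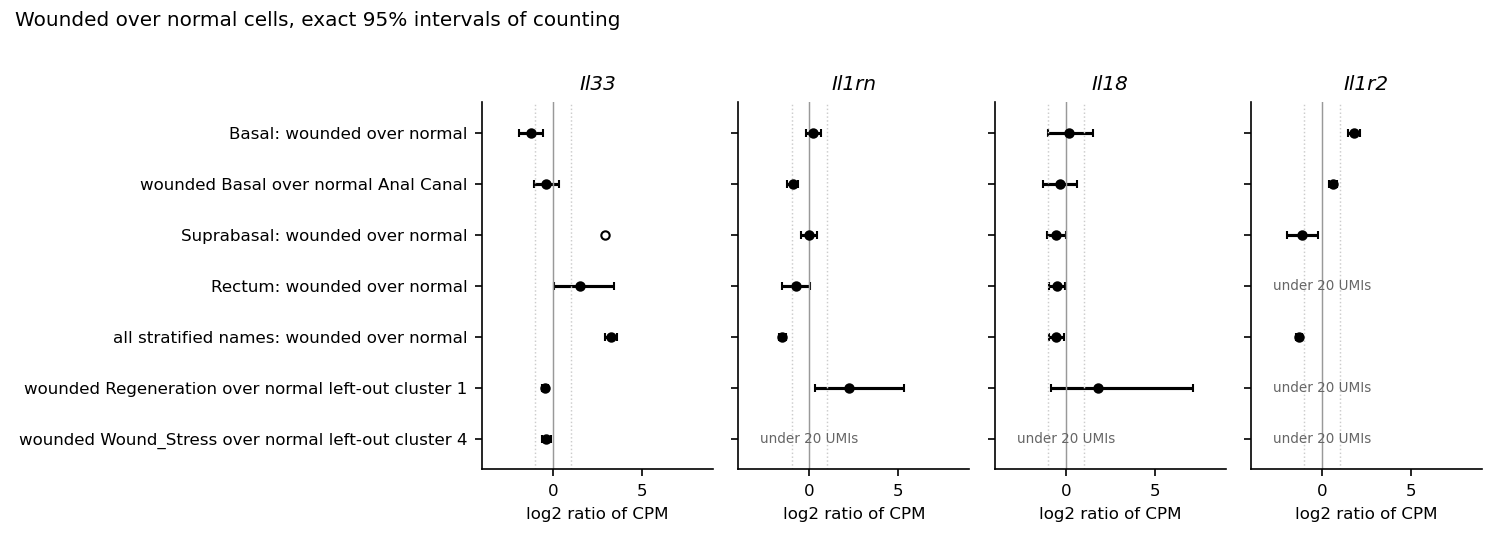
Log2 ratio of CPM, wounded over normal (x axis), for 4 genes in 7 pairings of cell groups (y axis), with exact 95% intervals of counting. Dotted lines mark 2-fold and the open circle is computed with 3 UMIs in place of 0. Il33 is at 3.26 over all stratified names and at -0.44 and -0.37 when Regeneration and Wound_Stress are set against the closest normal clusters.

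Left-out against deposited cells had 4 of 5 members past 2-fold in the normal library, against 23.6% of all genes, and 5 of 6 in the wounded library, against 25.6%. Besides Il33, given above, the left-out cells were lower in Il1r2 (-5.06 and -1.23), Il1rn (-4.72 and -3.28) and Il18 (-3.11 and -1.12), the first value of each pair being the normal library. The wounded value of Il1r2 rests on 1 cell with 54 of the 77 UMIs, and the left-out level was 6.49 CPM with and 1.94 CPM (1.23 to 2.91) without that cell, against 15.2 CPM in the deposited cells. Il1a was also past 2-fold in the wounded library (log2 ratio -1.75), from 3 against 37 UMIs. Il1r1 was at 0.05 (-0.56 to 0.64) in the normal and 0.71 (0.42 to 0.98) in the wounded library. In the list 5 of 42 genes were higher and 7 lower in the normal left-out cells, led by Nfkbiz (1.39), Nfkbia (1.26) and Nlrp10 (1.20) and by Il1f9 (-6.55), Aim2 (-3.28) and Nlrp6 (-2.64). In the wounded left-out cells 2 of 49 were higher, Nlrp10 (2.07) and Tslp (1.67), and 14 lower, led by Il1f9 (-4.63), Tnfaip3 (-2.30) and Nlrp6 (-2.05).

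The genes whose levels over the 10 names were most like a member were found by Pearson correlation of log2(CPM + 5) among 11606 genes, names of 1 library sharing its preparation and sequencing. For Il33 these were Pxmp4 (r = 0.985), Lhpp (0.9704), Lama4 (0.961), Secisbp2l (0.958) and Arl4a (0.958). Lama4, a laminin chain, was at 51.4 CPM in Regeneration and 89.5 in Wound_Stress, and between 0.438 CPM, in normal Suprabasal, and 22.3 CPM elsewhere. For Il18 they were Mapk13 (0.989), Usp43 (0.979), Best2 (0.976), Scamp1 (0.971) and Mvp (0.964), and for Il1r2 Chst3 (0.975), Marveld1 (0.965), Evc (0.959), Fam83f (0.959) and Popdc3 (0.954). For Il1rn they were Prelid1 (0.971), Cltb (0.918), Actr2 (0.916), Mall (0.905) and Nagpa (0.904), and for the nearly even Il1r1 Mbd5 (0.937), Ddi2 (0.918), Zbtb1 (0.912), Rgs11 (0.904) and Cog4 (0.893). No level of Il1r1 differed from its neighbour beyond counting error, so its list is uncertain. Mbd5, Ddi2 and Cog4 were lower in every normal name than in any wounded name, while Zbtb1 and Rgs11 were not.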

How the data were processed

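Single cells were sequenced with the 10x Genomics 3′ method as 1 normal and 1 wounded library. Per the labels and headers, the deposited matrices hold raw UMI counts by feature and barcode from Cell Ranger on mm10 (the submitters' notes name Cell Ranger 3.1.0 and Seurat 3.2.2; the file headers name 3.1.0 for the normal and 4.0.0 for the wounded library). The authors also deposited named cells with values on the natural log scale, each equal to ln(1 + n) for some whole n. The step that gave n is not given in the sources used here; only their cells and names were used, except in 1 alternative. A difference of Cell Ranger version and gene annotation between the libraries (30406 genes listed in both) can affect comparisons between them.

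Cells had over 200 and under 5000 detected genes and under 25% mitochondrial UMIs, as the study states; 1 deposited normal cell does not meet this and was kept. Counts were summed per group and divided by the group's total. Levels have exact Poisson, ratios exact binomial and shares exact Clopper-Pearson intervals at 95%. A group with 0 UMIs was set to 3 UMIs and only the finite limit of the interval is given. Ratios needed 20 UMIs in both groups together. Cells had 500 to 38652 UMIs. Thinning to 2000 UMIs left out 2 to 132 shallower cells per name. Clusters were formed with Seurat 5.3.0 in R 4.3.3 (10 components, resolution 0.4 for left-out and 0.2 for deposited cells) without the members and the pathway list (63 symbols written, 59 listed in both libraries), and named from marker lists where the mean log2 ratio was over 1, at least 3 markers were detected and the next list was at least 1.5 lower. A cluster of low depth with no marker of its best list among its leading genes also stayed unnamed. Left-out normal cluster 5 (muscle or pericyte list at 6.70, next list at 4.26) met these limits but was kept unnamed by choice. The same holds for left-out wounded cluster 4 (transition zone list at 2.95, next list at 1.29). Scrublet in scanpy 1.11.5 called 3 and 0 doublets, so its calls were not used and the 93 and 314 cells with the highest scores were left out in an alternative. TMM factors from edgeR 4.0.16 were another. Ratios were first tested on simulated data.

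The members and lists were chosen with earlier results of these data known. Named are the 7 members, the receptors Il1rl1, Il1rap and Il18r1, and for each comparison at most 3 pathway genes past 2-fold in each direction; Naip1, Gsdmd and Il1rap in the wounded Rectum were added after their values were seen. Also named are the 5 genes most like a member.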

Additional observations from a re-analysis of the deposited data

Results flagged for a closer look

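The ratio of wounded to normal Il1r2 differed in sign between cell names, 1.77 on the log2 scale in the cells named Basal and -1.14 in the cells named Suprabasal. The second rests on 1 normal cell with 11 of 17 UMIs (2.65 CPM without it, against 3.37 CPM in the wounded cells), and it was 0.546 without the cells with the highest doublet scores. That of Il33 was -1.27 in Basal, 1.499 in Rectum and, with 3 UMIs in place of 0, 2.94 in Suprabasal. These differences between names were not tested, since each condition is 1 library. The names do not hold like cells in both libraries: wounded Basal was closest to normal Anal Canal (r = 0.946), and 62 wounded Suprabasal cells that clustered with Wound_Stress held 21 of the 117 UMIs of Il33 in that name. A further 76 UMIs were in 500 cells of new cluster 2, and 20 were in the 466 cells of new cluster 5.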

How the results depend on the processing

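No paired analysis was possible because each condition is 1 library and no result comes from a test. Of 689 ratios of members under the alternatives, 651 kept their sign where called or stayed in the main interval, 37 moved outside it and 1 reversed. The reversed one is Il1r2 between wounded and normal Suprabasal, at 0.546 without the cells with the highest doublet scores. Of 131 counts of members past 2-fold, 117 were within 1.5 times the value reported. For Wound_Stress over Regeneration (1 reported) the count was 0 with totals without mitochondrial UMIs, without the highest doublet scores or with names from new clusters, and 2 with no minimum of UMIs. Normal Suprabasal over Basal (3) gave 1 at 50 UMIs. Wounded over normal Suprabasal (2) gave 1 without the highest doublet scores and 1 with the deposited whole numbers. Wounded over normal Rectum (1) gave 2 with per-cell means, with no minimum and at 1.5-fold. Per-cell means gave 5 over all stratified names (3). Chosen after the data were seen, the same comparison gave 1 with all filter-passing cells, where 18.7% of 15155 genes were past 2-fold. It gave 1 with normal left-out clusters 1 and 4 added. Wounded Basal against normal Anal Canal gave 1 in place of 3, against 17.2% of all genes. The share of all genes is not given here for the other alternatives, so their counts cannot be set beside it. The causes were not tested. With 63 normal Rectum cells, and 0 to 4 UMIs of Il33, Il1r1 and Il1r2 in them, ratios against that name are wide.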
